A study of Mus musculus with 6 samples.

Results

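Arginine and polyamine metabolism is described here through 10 genes, *Ass1*, *Asl*, *Arg1*, *Arg2*, *Oat*, *Odc1*, *Amd1*, *Srm*, *Sms* and *Sat1*, chosen by symbol from the 25140 genes of a count table. All 10 were listed, and 8 of them were among the 14334 genes with enough reads for a test. Poly(A) RNA-seq libraries were made from primary fibroblasts, 3 with vehicle and 3 with TGFβ, of C57BL/6 mice. Per the labels, the cells came from the adult heart, were at passage 1, were grown with 25 mM glucose and 10% FBS, and were kept in 1% FBS for 16 h before 24 h with or without 10 ng/ml TGFβ, the cytokine best known for driving fibroblast activation. The study's methods also name cardiac fibroblasts for the sequencing, though they place the serum change 24 h before treatment and the results section speaks of embryonic fibroblasts. The labels are followed here. No allele or transgene is named for either group. The methods name 3 biological replicates, and neither they nor the labels say whether these were separate animals or cultures, so p-values measure the spread between these libraries.

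Arginine is rebuilt from citrulline by argininosuccinate synthetase and argininosuccinate lyase, and arginases split it into urea and ornithine. Ornithine then has several fates. Ornithine decarboxylase commits it to putrescine and so to the polyamines spermidine and spermine, while ornithine aminotransferase exchanges it with the precursor that proline and glutamate share. Polyamines are cations that bind RNA and support translation and growth, and proline is a major residue of collagen, the main product of activated fibroblasts.

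The libraries held 27851677 to 31072338 reads counted on genes. All 9 fibroblast markers examined were detected. In vehicle libraries their summed level was 35738 to 40884 CPM (read counts per 1e6 counts of the library, scaled with TMM factors). In TGFβ libraries it was 39961 to 43472 CPM, although 6 of the 9 fell with TGFβ and none rose. Of all genes tested, 20.1% fell. Most of the sum was collagen, with means of 19992 CPM for *Col1a1* and 13657 CPM for *Col1a2* with vehicle, and *Pdgfra* went from 665 to 257 CPM. Markers of endothelial cells summed to 419 to 645 CPM with vehicle and 383 to 524 CPM with TGFβ, and none of the 6 passed the test. The highest endothelial level of each group was in the vehicle library of 29331999 counts and the TGFβ library of 28641986 counts. Of 5 genes known to respond to TGFβ, 4 rose, among them *Acta2* with a log2 fold change of 1.03. *Smad7* did not pass (log2 fold change 0.016, edgeR adjusted p = 0.881). In bulk RNA, fewer cells of a type and less RNA per cell cannot be told apart.

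TGFβ raised most of the polyamine genes and lowered ornithine aminotransferase. Of the 8 genes tested, 6 rose (*Odc1*, *Ass1*, *Sat1*, *Amd1*, *Srm* and *Sms*), 1 fell (*Oat*) and *Asl* did not pass the threshold, 0.05 after Benjamini-Hochberg adjustment of p from the quasi-likelihood test of edgeR. No change reached 2-fold, as the log2 fold changes lay between -0.75 and 0.71. Among all genes tested, 40.7% passed the same threshold, 20.5% with a rise and 20.1% with a fall. The groups did not overlap in any of the 8, against 53.3% of all genes tested. The median log2 fold change was 0.39 over the 8 genes and -0.0013 over all genes tested, and the median size of the change was 0.47 against 0.21. The genes were chosen with earlier results of these data known, so these comparisons with all genes are description only. Both arginase genes were nearly silent.

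**Figure D1:**
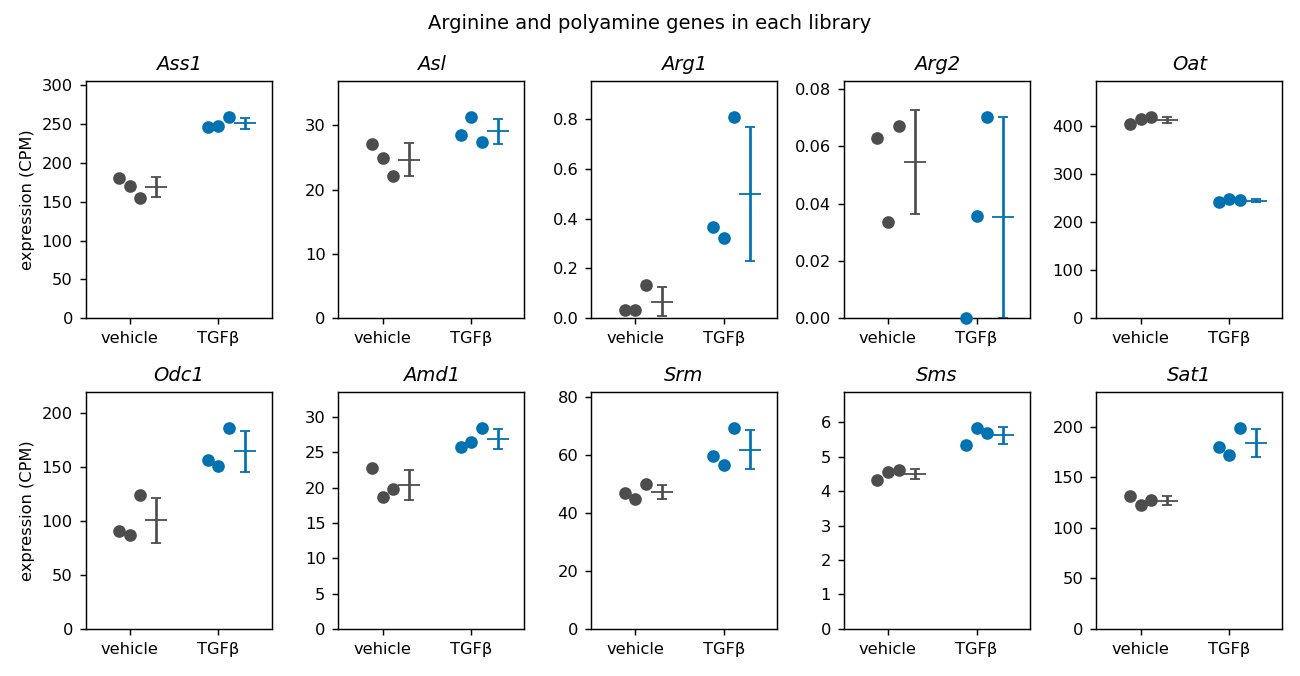
Expression of each of the 10 genes in every library, in CPM on linear axes that start at 0. Points are libraries, vehicle in grey and TGFβ in blue, and the bar beside them is the mean with its SD (n = 3). In *Oat* every TGFβ library (240.4 to 248 CPM) lay below every vehicle library (404 to 417 CPM), and in *Odc1* every TGFβ library (151 to 186 CPM) lay above every vehicle library (87.2 to 124 CPM).

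The sequence before the start site is shown for *Odc1* and *Oat*, which moved most in each direction among the 8 tested genes, and for *Sat1*. The *Ass1* stretch is shown because it holds an E-box, the motif of Myc-family and related factors. A window of *Sms* also holds an E-box and is not shown. RefSeq promoter windows of GRCm38.p6, 250 bases before to 50 bases after a start site, were held for 6 of the 10 genes in 7 windows. *Asl*, *Arg1*, *Arg2* and *Srm* had no entry. The runs read 5′ to 3′ on the gene's strand, in lower case with motifs in capitals, and those of *Oat*, *Odc1* and *Sat1* end at the base before the first annotated start of the gene. The *Ass1* stretch (chr2:31470222-31470251, plus strand, 30 bases) has the E-box CACGTG in capitals. This stretch lies before the RefSeq start site (chr2:31470270) but after the first annotated start of the gene (chr2:31470207). The 187 bases of the *Ass1* window before that first annotated start hold none of the motifs searched and are not shown. That of *Odc1* (chr12:17544623-17544793, plus strand, 171 bases) holds none of the motifs searched. That of *Sat1* (chrX:155216450-155216699, minus strand, 250 bases) has TGTCTG, the complement of the SMAD motif CAGACA, in capitals. That of *Oat* (chr7:132576399-132576648, minus strand, 250 bases) holds none before the start.
Ass1: cgcgcccgtcccCACGTGtcccaggttcct
Odc1: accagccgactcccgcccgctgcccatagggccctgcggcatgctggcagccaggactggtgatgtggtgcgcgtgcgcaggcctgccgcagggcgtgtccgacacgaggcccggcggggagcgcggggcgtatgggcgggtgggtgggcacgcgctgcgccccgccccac
Sat1: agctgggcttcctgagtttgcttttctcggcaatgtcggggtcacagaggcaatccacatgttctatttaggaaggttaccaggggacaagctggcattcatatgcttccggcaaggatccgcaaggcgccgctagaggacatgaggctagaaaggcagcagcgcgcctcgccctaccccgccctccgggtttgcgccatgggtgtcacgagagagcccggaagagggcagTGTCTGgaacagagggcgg
Oat: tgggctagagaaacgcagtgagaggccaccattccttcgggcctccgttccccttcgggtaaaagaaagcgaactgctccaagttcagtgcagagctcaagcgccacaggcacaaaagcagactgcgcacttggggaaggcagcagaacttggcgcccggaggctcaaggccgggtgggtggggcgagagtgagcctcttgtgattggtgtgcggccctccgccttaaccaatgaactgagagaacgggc

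Motifs were searched on both strands of each whole window and not beyond it, so a gene without a match may hold one elsewhere. The E-box CACGTG was in windows of *Ass1* and *Sms*, and in 7.15% of all 32851 windows. In *Ass1* it began 36 bases before the RefSeq start site, which is after the first annotated start of the gene. In *Sms* it began at position -196 from the start site. The SMAD motif CAGACA was in the windows of *Sat1*, beginning 19 bases before the start, and *Oat*, at base 11 after it, and in 21.0% of all windows. The cAMP response element TGACGTCA (1.79% of all windows), the amino acid response element TGATGNAA (3.97%) and the TATA box TATAAA (13.6%) were in none of the 7. No window held matches of more than 1 of these motifs. Variants of these letters were not searched. The *Amd1* window holds TATATAAG, a near variant of the TATA box, before the start. A match describes the letters and no binding was measured. The GC content was 78% in the window of *Odc1*, 74% in that of *Ass1*, 50.3% and 74.3% in those of *Sms* and 60.3% to 63% in those of *Sat1*, *Oat* and *Amd1*, against a median of 52.7% over all windows.

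The gene for the first step of arginine synthesis rose. *Ass1* (ENSMUSG00000076441, chr2:31470207-31520672, plus strand) encodes argininosuccinate synthetase, the rate-limiting enzyme in rebuilding arginine from citrulline. Its level was 181, 170.1 and 155 CPM in the vehicle libraries and 247, 248 and 259 CPM in the TGFβ libraries. All TGFβ libraries were thus above all vehicle libraries, and the TGFβ libraries were the closer to each other. The mean went from 169 ± 12.9 to 251 ± 6.90 CPM (SD, n = 3 each), or 0.57 on the log2 scale with an SE of 0.06 (edgeR adjusted p = 0.000289). It stayed between 0.49 and 0.63 in all 13 alternative fits, each of which called it. Of the 75-base windows of its longest transcript, 46.9% also occur in *Gm5424*, whose row held 65 counts over the 6 libraries against 36478 for *Ass1*. How the authors' counting treated reads that fit both is not given in the sources used here.

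*Asl* (ENSMUSG00000025533, chr5:130011258-130029247, minus strand) encodes argininosuccinate lyase, which completes arginine. It was measured at 27.1, 24.8 and 22.1 CPM with vehicle and 28.5, 31.3 and 27.4 CPM with TGFβ. The TGFβ libraries lay above the vehicle libraries by a narrow margin. The log2 fold change was 0.24 with an SE of 0.08 (edgeR adjusted p = 0.0582), short of the threshold. The adjusted p was 0.0445 when low counts were not filtered and 0.0283 after removal of the vehicle library of 31072338 counts, and reached 0.179 without the TGFβ library of 28894151 counts. Within a library, the log2 ratio of *Asl* to *Ass1* counts was -2.78 ± 0.04 with vehicle and -3.11 ± 0.13 with TGFβ (SD, n = 3 each), with no overlap between groups (exact permutation, two-sided p = 0.1, the smallest that 3 libraries against 3 allow, and 0.25 adjusted over the 5 pairs computed).

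The arginases, which make ornithine from arginine, were at the edge of detection. *Arg1* (ENSMUSG00000019987, chr10:24915221-24927484, minus strand), the cytosolic arginase of liver and of alternatively activated macrophages, had 1, 1 and 4 counts with vehicle and 10, 9 and 23 with TGFβ. Each TGFβ library held more than any vehicle library, although the filter on low counts left the gene out of the test. The counts, 6 against 42 in all, gave a ratio of 7.63 (95% exact binomial interval 3.23 to 22.0, counting error only) after scaling for library size. With no filter on low counts edgeR gave an adjusted p of 0.00408. In CPM the mean went from 0.066 ± 0.059 to 0.50 ± 0.27 (SD, n = 3 each).

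Macrophage markers were also present. Of 10 markers, 8 were listed, and they summed to 245 to 350 CPM with vehicle and 211 to 314 CPM with TGFβ. Most of this sum was *Lyz2*, at 201 to 290 CPM with vehicle and 172 to 258 CPM with TGFβ, and no other marker exceeded 18.2 CPM in any library. Of the 7 tested, only *Mrc1* passed, with a log2 fold change of -1.07, and none rose. *Retnla* and *Chil3*, which like *Arg1* mark alternatively activated macrophages in mice, were not listed, and *Cd163* was between 0.034 and 0.094 CPM. The library with the most *Arg1* counts in each group was also the one with the highest macrophage sum (350 CPM for the vehicle library of 29331999 counts and 314 CPM for the TGFβ library of 28641986 counts). The endothelial markers, and the proliferation and growth markers described below, also had their highest sums of each group in these libraries. The part of macrophages or of any of these in the *Arg1* counts was not tested.

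*Arg2* (ENSMUSG00000021125, chr12:79130777-79156301, plus strand), the mitochondrial arginase, had 2, 1 and 2 counts with vehicle and 0, 1 and 2 with TGFβ. The groups overlapped, and the ratio was 0.65 (95% exact binomial interval 0.10 to 3.36, counting error only), so no difference was detectable at this depth. *Arg2* shares 285 exonic bases with *Vti1b* on the other strand, which held 13905 counts. The planned ratio of *Arg2* to *Arg1* was not computed, as both were under 10 counts in some library. Of the urea cycle genes that are most abundant in liver, *Cps1* did not exceed 0.22 CPM in any library, and *Otc* was not listed.

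Ornithine aminotransferase fell, and its SE was the smallest of the 8 tested genes. *Oat* (ENSMUSG00000030934, chr7:132557478-132576398, minus strand) encodes the mitochondrial enzyme that links ornithine to proline and glutamate. It was at 404.0, 414 and 417 CPM in the vehicle libraries and 240.4, 248 and 244 CPM in the TGFβ libraries. The gap between the groups was many times the range within either. The mean went from 412 ± 6.86 to 244 ± 3.56 CPM (SD, n = 3 each), which was 0.59 of the vehicle level, or -0.75 on the log2 scale with an SE of 0.04 (edgeR adjusted p = 1.14e-05). Over the alternatives it ran from -0.77 to -0.74. No window of the *Oat* transcript occurs in another gene. Of all genes tested, 88.4% changed by no more than *Oat* did in either direction.

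Ornithine decarboxylase, which also acts on ornithine, went the other way. *Odc1* (ENSMUSG00000011179, chr12:17544794-17551505, plus strand) encodes the first and rate-limiting enzyme of polyamine synthesis. Its level was 90.4, 87.2 and 124 CPM with vehicle and 156, 151 and 186 CPM with TGFβ. In each group 1 library stood above the others, the vehicle library of 29331999 counts and the TGFβ library of 28641986 counts. The mean went from 101 ± 20.7 to 165 ± 19.0 CPM (SD, n = 3 each), or 0.71 on the log2 scale with an SE of 0.14 (edgeR adjusted p = 0.00565). The endothelial markers were highest in the same libraries, at 645 and 524 CPM. So were the sums of the macrophage markers (350 and 314 CPM). The proliferation (153 and 113 CPM) and growth markers (1024 and 1145 CPM) described below were highest there too. The part of any of these in the spread of *Odc1* was not tested. Without both libraries, 1 of each group, the log2 fold change was 0.79 (edgeR adjusted p = 5.62e-05). This alternative was added after the data were seen. The libraries left out held the highest *Odc1* of each group, which narrows the spread by construction. The lower p-value is therefore no added support. Windows shared with 12 other loci made up 30.5% of the *Odc1* transcript, and those loci held 842 counts, or 3.66% of the 22987 of *Odc1*.

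The log2 ratio of *Oat* to *Odc1* counts in each library went from 2.16, 2.25 and 1.75 with vehicle to 0.62, 0.71 and 0.39 with TGFβ. The groups were far apart, and the ratio of the counts went from 4.14 to 1.49. The difference of the mean log2 ratios was -1.48 (two-sided exact permutation test, p = 0.1, adjusted p = 0.25 over the 5 pairs), between -1.63 and -1.38 with each library left out. This ratio does not depend on how libraries are scaled to each other. It compares RNA only, and the flow of ornithine was not measured in these libraries.

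**Figure D2:**
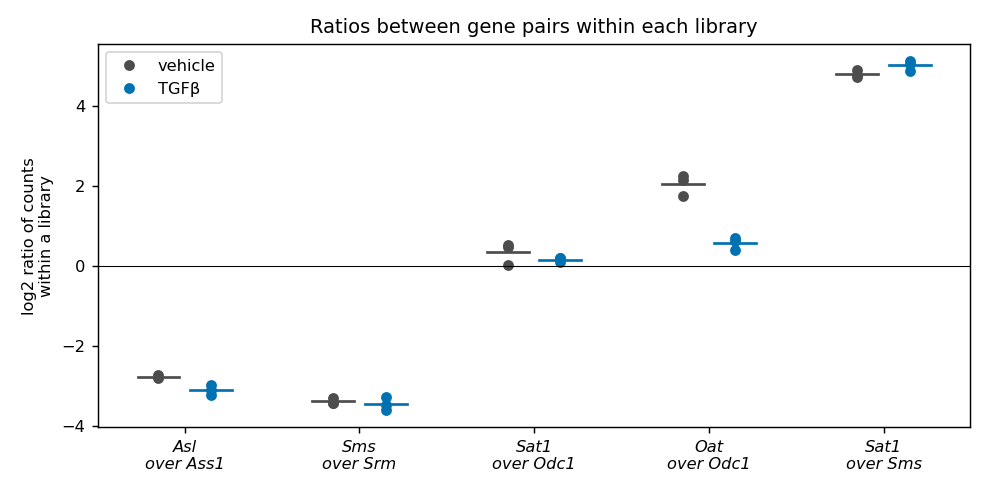
Log2 ratio of the counts of gene pairs within each library, for the 5 pairs that could be computed. Points are libraries (3 per group) and lines are group means. *Oat* over *Odc1* went from a mean of 2.05 with vehicle to 0.57 with TGFβ, and the groups also lay apart for *Asl* over *Ass1*, while the other pairs overlapped.

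The genes for the later steps of polyamine synthesis rose with smaller fold changes, and their difference from *Odc1* was not tested. *Amd1* (ENSMUSG00000075232, chr10:40287458-40302186, minus strand) encodes S-adenosylmethionine decarboxylase, which supplies the aminopropyl group for spermidine and spermine. It was at 22.7, 18.7 and 19.7 CPM with vehicle and 25.8, 26.4 and 28.4 CPM with TGFβ. The groups did not overlap, and the log2 fold change was 0.40 with an SE of 0.08 (edgeR adjusted p = 0.00608). Its reads are hard to place, since 81.9% of the windows of its longest transcript also occur in other loci, 2490 of 3130 in *Amd2*. The *Amd2* row held 33 counts in all against 4120 for *Amd1*.

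*Srm* (ENSMUSG00000006442, chr4:148591503-148594993, plus strand) encodes spermidine synthase, which turns putrescine into spermidine. It had 46.9, 45.0 and 49.9 CPM with vehicle and 59.7, 56.4 and 69.3 CPM with TGFβ. The highest values of each group were again in the vehicle library of 29331999 counts and the TGFβ library of 28641986 counts. The log2 fold change was 0.39 with an SE of 0.08 (edgeR adjusted p = 0.00645), and without both libraries it was 0.33 (edgeR adjusted p = 0.00287). Leaving out the highest value of each group narrows the spread by construction here too.

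*Sms* (ENSMUSG00000071708, chrX:157443855-157492287, minus strand) encodes spermine synthase, which adds the last aminopropyl group. It was the lowest of the synthesis genes, at 4.34, 4.55 and 4.63 CPM with vehicle and 5.34, 5.84 and 5.68 CPM with TGFβ. The groups did not overlap, but the gap was small. The log2 fold change was 0.32 with an SE of 0.10 (edgeR adjusted p = 0.0302). This call was lost with DESeq2 (adjusted p = 0.122), with no filter on low counts (edgeR adjusted p = 0.0544) and in 5 of the 6 fits with 1 library left out (adjusted p up to 0.097 from edgeR, without the TGFβ library of 28894151 counts), the exception being the fit without the TGFβ library of 27851677 counts. Of the windows of its longest transcript 28.2% also occur in other loci, which held 9 counts against 882 for *Sms*. Between *Sms* and *Srm* the log2 ratio of counts was -3.39 ± 0.07 with vehicle and -3.46 ± 0.17 with TGFβ (SD, n = 3 each), a difference of -0.06 within the spread (two-sided exact permutation test, p = 0.5).

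The polyamine breakdown gene of the set rose as well. *Sat1* (ENSMUSG00000025283, chrX:155213132-155216449, minus strand) encodes spermidine/spermine acetyltransferase, the enzyme that marks polyamines for export or oxidation. Its level was 131, 122 and 127 CPM with vehicle and 179, 172 and 199 CPM with TGFβ. The vehicle libraries were close together and all TGFβ libraries lay above them. The mean went from 127 ± 4.47 to 183 ± 13.6 CPM (SD, n = 3 each), or 0.53 on the log2 scale with an SE of 0.06 (edgeR adjusted p = 0.000389). The log2 ratio of *Sat1* to *Odc1* counts was 0.35 ± 0.28 with vehicle and 0.16 ± 0.06 with TGFβ, with overlapping groups (two-sided exact permutation test, p = 0.4). The difference, -0.19, was -0.35 without the vehicle library of 29331999 counts, -0.12 without that of 29296570 counts and -0.10 without that of 31072338 counts. That of *Sat1* to *Sms* was 4.82 ± 0.09 and 5.03 ± 0.13, again with overlap (two-sided exact permutation test, p = 0.2).

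Some markers of growth and division differed between the groups beside these genes. Of 7 growth markers (*Myc*, *Mycn*, nucleolar genes and *Cad*), 4 rose (*Nop56*, *Cad*, *Fbl* and *Ncl*), 1 fell (*Mycn*) and 2 did not pass. Their sum was 929 to 1024 CPM with vehicle and 1075 to 1145 CPM with TGFβ. Most of it was *Ncl* and *Npm1*, with means of 376 and 438 CPM with vehicle. *Myc* itself had a log2 fold change of 0.19 and an adjusted p of 0.102 from edgeR. Of 6 proliferation genes, 3 fell (*Mki67*, *Top2a* and *Ccnb1*) and none rose. Their sum was 134 to 153 CPM with vehicle and 96.2 to 113 CPM with TGFβ. Over all genes tested, 40.7% passed the threshold, 20.5% with a rise and 20.1% with a fall. The part of growth or division in the levels of the polyamine genes was not tested.

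Per length, the genes spanned more than 3 orders of magnitude. Levels are given here in CPM per kb of annotated exon, as means of 3 libraries. The length is the sum of all annotated exons, 2414 bases for *Ass1* and 2360 for *Oat*. Their longest transcripts have 1696 and 2152 bases, and 1352 for *Sat1* against 2774 of summed exon. The order can therefore change with the length used, and no other length was tried. Reads that fit more than 1 locus add to this limit. They concern *Amd1*, *Ass1*, *Odc1*, *Sms* and, for 2.27% of its windows, *Sat1*, but not *Oat*. With vehicle the order was *Oat* (174), *Ass1* (69.9), *Sat1* (45.7), *Odc1* (29.6), *Srm* (29.6), *Amd1* (5.75), *Asl* (5.11), *Sms* (0.75), *Arg2* (0.038) and *Arg1* (0.030). Neighbours overlapped between libraries for *Odc1* and *Srm*, for *Amd1* and *Asl*, and for the arginases. With TGFβ, *Ass1* (104) and *Oat* (103) overlapped at the head of the order, where *Oat* had stood alone with vehicle. With vehicle the level of *Ass1* over that of *Oat* per length was 0.44, 0.40 and 0.36, and with TGFβ it was 1.00, 0.98 and 1.04. This pair was singled out after its values were seen and is given without a test. *Arg1* stood at 0.22 and *Arg2* at 0.025 with TGFβ, and *Odc1* at 48.3.

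**Figure D3:**
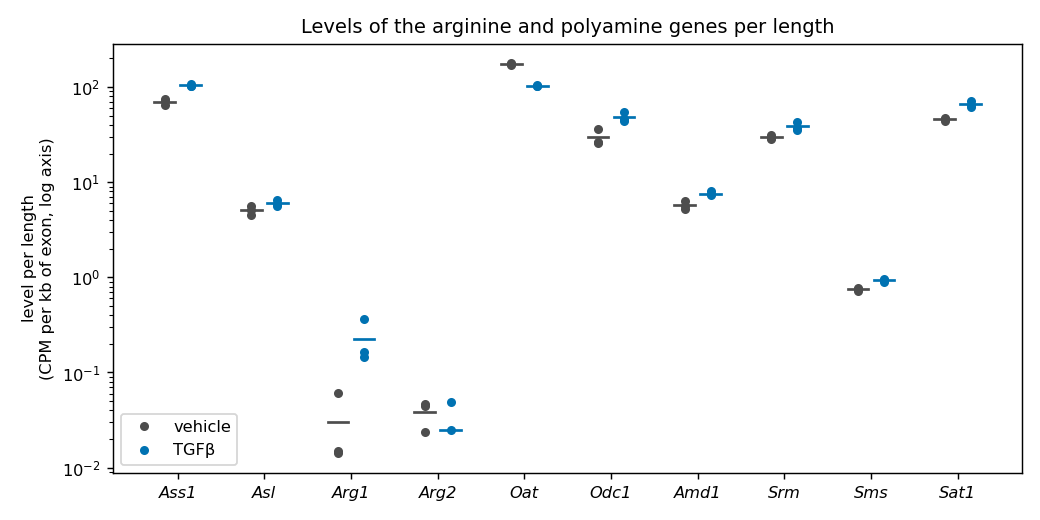
Level of each of the 10 genes per length, in CPM per kb of exon on a log axis. Points are libraries, vehicle in grey and TGFβ in blue, and lines are means of 3 libraries. One TGFβ library with no *Arg2* count is not drawn as a point but is in the mean. The arginases lie below 0.37 in every library, while *Oat* and *Ass1* lie above 64.

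Around these genes, 43 other genes of the pathway were examined, of which 40 were listed and 35 tested. This list too was chosen with earlier results of these data known. With TGFβ 14 rose and 5 fell, 54.3% of those tested against 40.7% of all genes, and their median log2 fold change was 0.02. The number called was 15 to 18 over the alternative fits. Few moved far, as only *Ddah1* passed a log2 fold change of 1.

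**Figure D4:**
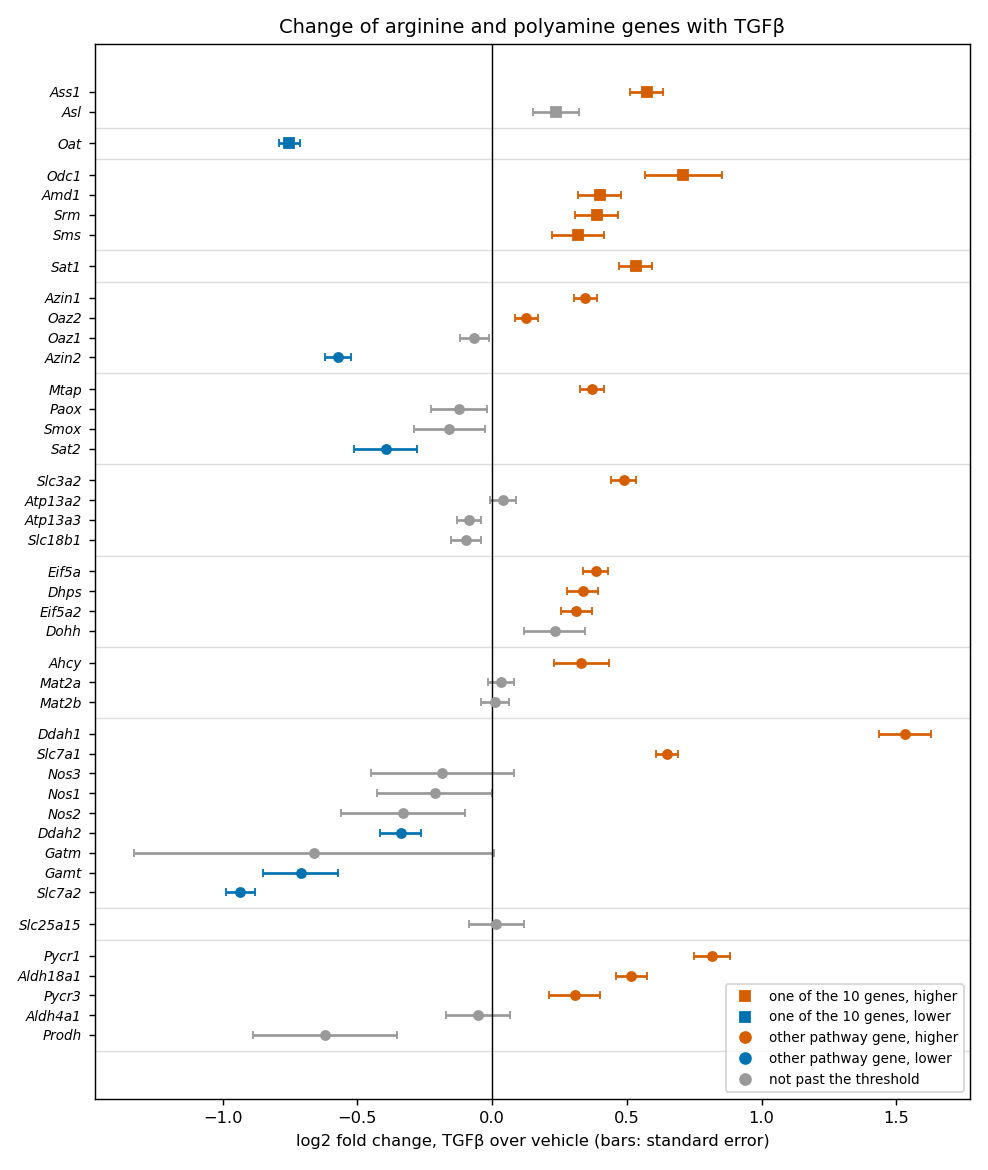
Change with TGFβ on the log2 scale of the 8 tested genes of the set (squares) and 34 of the tested genes around them (circles), grouped by role, with bars for the standard error. Orange marks genes that rose and blue genes that fell at an adjusted p under 0.05 from edgeR, and grey genes that did not pass. *Ddah1*, at 1.53, is farthest right and *Slc7a2*, at -0.94, farthest left.

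The antizyme inhibitor genes, which act on ornithine decarboxylase, went in opposite directions. Antizymes bind the enzyme and send it to the proteasome, and antizyme inhibitors free it. *Azin1*, an antizyme inhibitor, rose from 113 ± 4.27 to 144 ± 2.27 CPM (SD, n = 3 each, log2 fold change 0.35, edgeR adjusted p = 0.000531). *Azin2*, its paralog, fell from 41.8, 44.3 and 41.4 CPM to 27.5, 28.7 and 29.5 CPM (log2 fold change -0.57, edgeR adjusted p = 0.00011). In neither did the groups overlap. Of the antizymes, *Oaz2* rose slightly (log2 fold change 0.13, edgeR adjusted p = 0.0484), a call lost in all 13 alternative fits (adjusted p up to 0.169). *Oaz1* had a log2 fold change of -0.07 (edgeR adjusted p = 0.376), and *Oaz3* was too low to test.

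Of 4 genes for oxidation, acetylation and salvage, *Mtap* rose and *Sat2* fell, 50% of the group, where 40.7% of all genes tested passed. *Mtap* encodes methylthioadenosine phosphorylase, which recycles the by-product of spermidine and spermine synthesis, and its log2 fold change was 0.37 (edgeR adjusted p = 0.00054). *Sat2*, a relative of *Sat1*, had a log2 fold change of -0.40 (edgeR adjusted p = 0.0302), called in 7 of 13 alternative fits. The oxidases *Smox* and *Paox* had log2 fold changes of -0.16 and -0.12 and did not pass. Of 4 transport genes tested, only *Slc3a2*, the heavy chain shared by several amino acid transporters, rose (log2 fold change 0.49, edgeR adjusted p = 0.000192). That is 25% of the transport genes tested, near the 20.5% of all genes tested that rose.

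In the hypusine group, which covers the enzymes that form it and the factor that carries it, most genes rose. Hypusine is a residue made from spermidine on the translation factor EIF5A, by the enzymes that *Dhps* and *Dohh* encode. Of the 4 genes of this group, 3 rose, where 20.5% of all genes tested did. These were *Eif5a*, *Eif5a2* and the enzyme gene *Dhps* (log2 fold change 0.34, edgeR adjusted p = 0.00252). The other enzyme gene, *Dohh*, did not pass (log2 fold change 0.23, edgeR adjusted p = 0.144). *Eif5a* went from 349, 329 and 334 CPM with vehicle to 426, 436 and 459 CPM with TGFβ. The groups did not overlap, and the log2 fold change was 0.38 with an SE of 0.05 (edgeR adjusted p = 0.000628). For the methyl donor that *Amd1* decarboxylates, *Ahcy*, which clears its product after methyl transfer, rose (log2 fold change 0.33, edgeR adjusted p = 0.0355, called in 8 of 13 alternative fits), and the synthase genes *Mat2a* and *Mat2b* had log2 fold changes of 0.03 and 0.01.

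Arginine uptake and use held the largest changes. *Ddah1* encodes an enzyme that degrades methylated arginines, which are inhibitors of nitric oxide synthases, and releases citrulline. It was at 96.0, 77.2 and 75.5 CPM with vehicle and 256, 235 and 228 CPM with TGFβ. Every TGFβ library was above 2 times any vehicle library, and the change was 1.53 on the log2 scale with an SE of 0.10 (edgeR adjusted p = 2.76e-05). *Slc7a2*, a transporter of arginine and other cationic amino acids, fell from 267, 261 and 290.3 CPM to 139, 148 and 141 CPM, a change of -0.94 on the log2 scale with an SE of 0.05 (edgeR adjusted p = 1.79e-05).

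*Slc7a1*, the widely expressed transporter of the same family, rose by a log2 fold change of 0.65. *Gamt*, of creatine synthesis, and *Ddah2* fell, with log2 fold changes of -0.71 and -0.34. None of the 3 nitric oxide synthase genes passed. *Gatm*, which makes ornithine as a by-product of creatine synthesis, was at 16.8, 1.69 and 5.30 CPM in the vehicle libraries, so its mean of 7.92 CPM rests on the library of 31072338 counts.

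On the way between ornithine and proline, genes for proline synthesis rose. *Pycr1*, which makes proline in mitochondria, went from 41.2, 35.8 and 34.5 CPM with vehicle to 66.1, 65.1 and 65.1 CPM with TGFβ. The TGFβ libraries were nearly level and all above the vehicle libraries, and the change was 0.82 on the log2 scale with an SE of 0.07 (edgeR adjusted p = 7.95e-05). *Aldh18a1*, which makes the same precursor as *Oat* but from glutamate, had a log2 fold change of 0.52 where that of *Oat* was -0.75. *Pycr3*, a relative of *Pycr1*, rose by 0.31 on the log2 scale (edgeR adjusted p = 0.0321), called in 9 of 13 alternative fits. The breakdown genes *Prodh* and *Aldh4a1* had log2 fold changes of -0.62 and -0.05 and did not pass. The mitochondrial ornithine carrier *Slc25a15* had a log2 fold change of 0.02.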

How the data were processed

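Single-end reads of 75 bases from stranded poly(A) libraries were aligned to mm10 and compared with DESeq2 by the authors. The aligner, counter and annotation are not given in the sources used here. The values used are the deposited counts of reads per gene, whole numbers without normalization. The remaining columns hold the authors' normalized mean and comparison and were not used. The count columns name the group only, so libraries are named by their total.

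From the counts, edgeR 4.0.16 (R 4.3.3) gave TMM factors, filterByExpr and the quasi-likelihood test over 14334 genes, with no covariate, Benjamini-Hochberg adjustment and a threshold of 0.05. The standard error is the size of the log2 fold change over the square root of F. Ratios within a library were compared by exact permutation. Exon lengths, positions and shared windows come from GENCODE M21 (GRCm38), promoters from RefSeq. *Pycr3* is listed as *Pycrl* and *Ccn2* as *Ctgf*. The named pathway genes are the largest rise and fall called in each role group, and the rest were named to account for small counts.

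Alternatives were DESeq2's size factors or upper quartile scaling in edgeR, DESeq2 1.42.0, limma-voom 3.58.1, no filter, 1 CPM in 3 libraries, each library left out, stricter thresholds, and the removal of 2 libraries, added later. The steps were tested on simulated data. Some genes that enter the counts are not reported here. The genes and lists were chosen with earlier results of these data known. Replicate pairs differed by more than counting noise.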

Additional observations from a re-analysis of the deposited data

How the results depend on the processing

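*Ass1*, *Oat*, *Odc1*, *Amd1*, *Srm* and *Sat1* kept their direction and their call in all 13 alternative fits (78 values), among them both other scalings, DESeq2 and limma-voom. These fits reuse the same 6 libraries or a part of them, so the 78 values are not independent. The 13 include the removal of 2 libraries, which was added after the data were seen. The log2 fold change of *Sms* was 0.31 with DESeq2, 0.32 with no filter on low counts and 0.33 without the 2 libraries with the highest endothelial level (adjusted p = 0.0924 from edgeR), none past the threshold. Removing single libraries gave 0.29 to 0.35. That of *Asl* was 0.24 with no filter, past the threshold, and 0.16 to 0.31 with each library left out. The difference in the log2 ratio of *Sms* to *Srm* ran from -0.16 to 0.01 with each library left out, and was 0.012 without the TGFβ library of 28641986 counts. Requiring a log2 fold change beyond 1 left 0 of the 8 genes tested, which did not include *Arg1* and *Arg2*. It left 1 of the other pathway genes and 971 of all genes. An adjusted p under 0.01 left 6 of the 8, with *Sms* lost, 15 of the other pathway genes and 3595 of all genes. Both thresholds are stricter than the main one. The cause of the other changes was not tested. No paired analysis was possible because the count columns carry no replicate numbers. Depth limits *Arg1* and *Arg2*, at most 23 counts a library.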
